A study of Mus musculus with 26 samples.

Results

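The mitochondrial ribosomal protein genes are described here, the nuclear genes that encode the proteins of the ribosome inside mitochondria. Members were taken as the protein-coding genes named Mrpl or Mrps with a number and at most 1 letter from a to c, a rule that uses names and no measured value. It gave 78 genes on 17 chromosomes among the 50686 genes listed, 49 named Mrpl for the large subunit and 29 named Mrps for the small subunit. BAT, brown adipose tissue, was taken from male mice on a C57BL/6J background in 4 groups, 7 control littermates and 7 fat-specific Afadin knockout (FAKO) mice kept at thermoneutrality, and 5 control littermates and 7 FAKO mice moved to 5 °C for 6 h. All 26 mice had first spent 2 weeks at thermoneutrality, which the labels give as 30 °C and the methods as 29 °C, and the methods give an age of 12 to 16 weeks. FAKO mice carry Adiponectin-Cre and a floxed Mllt4 (Afdn), so that the Cre acts in adipocytes of all fat depots and not in BAT alone. The genotype of the control littermates beyond that name is not given. The labels place the depot as supraclavicular, and each library comes from 1 mouse.

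A mitochondrion has its own ribosome, with a large subunit that joins amino acids and a small subunit that reads the mRNA. It makes only proteins encoded by mitochondrial DNA, which are core subunits of the respiratory chain and the ATP synthase, while all proteins of the ribosome itself are encoded in the nucleus and imported. Many of them have a counterpart in bacteria and others are found only in mitochondria. BAT is rich in mitochondria, and its heat comes from the oxidation of fuel that the respiratory chain carries out.

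Total counts ran from 12705969 to 25732258 per mouse (median 17237377). Every brown adipocyte marker examined was well detected, and the 8 summed ranged from 6822 to 8714 CPM (a gene's counts relative to the TMM-scaled library total) at 30 °C and from 25595 to 32367 CPM at 5 °C. Of the 8, 4 were higher and 2 lower in the cold at an FDR below 0.05 in each genotype. In control mice the mean of Ucp1 went from 985 to 16005 CPM and that of Fabp4 from 3759 to 7133. The mean of Adipoq went from 960 to 561 CPM and that of Prdm16 from 25.3 to 16.0 in these mice. Skeletal muscle markers varied widely inside every group, from 1.24 to 7754 CPM in sum. Transcripts of the mitochondrial genome took 14.3% to 40.5% of the counts. Afdn was not lower in the FAKO-labelled libraries at 30 °C, with 154 to 231 CPM against 151 to 214 CPM in control mice, so the group is called mice labelled FAKO throughout. At 5 °C Afdn had 53.3 to 65.3 CPM in mice labelled FAKO and 67.9, 75.5, 71.2, 73.7 and 79.2 CPM in control mice. Every mouse labelled FAKO was thus below every control mouse at 5 °C. Counts per gene do not separate the floxed part of Afdn from the rest. For the protein, the paper reports a smaller cold-induced rise of Afadin in BAT of FAKO mice. In whole tissue, fewer cells of a type and less RNA per cell cannot be told apart.

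The sequences before the start of a few members are shown first, since members that move together can share promoter elements. RefSeq windows of 250 bases before to 50 bases after the start (build GRCm38.p6) were at hand for 69 of the 78 members. The examples are the members with the largest rises (Mrps2, Mrpl20) and falls (Mrps15, Mrps24) in cold-exposed control mice among those with a single window and at most 20 annotated exon bases in the stretch shown, and 2 members that hold a searched motif (Mrps22, Mrpl45). They were chosen after their values were seen. Bases are printed 5′ to 3′ on the gene's strand up to the base before the start, with motif matches in capitals. The stretches are chr2:28467816-28468065 (+), chr4:155802628-155802877 (+), chr4:126046678-126046927 (+), chr11:5707702-5707951 (−), chr9:98601680-98601929 (−) and chr11:97315466-97315715 (+). The capitals mark the E-box CACGTG in Mrpl20, the ETS core CCGGAAGT in Mrps22 and 2 matches to the NRF1 core in Mrpl45. The NRF1 core is GCGC and TGCGC with any 1 base between them. Both matches in Mrpl45 are on the other strand, so that the printed strand reads GCGCA and GCGC with any 1 base between them.
Mrps2: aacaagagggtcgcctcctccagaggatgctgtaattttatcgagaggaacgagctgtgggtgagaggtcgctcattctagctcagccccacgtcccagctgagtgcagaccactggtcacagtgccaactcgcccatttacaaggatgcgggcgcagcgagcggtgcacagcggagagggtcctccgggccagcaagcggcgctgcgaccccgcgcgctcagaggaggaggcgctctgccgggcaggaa
Mrpl20: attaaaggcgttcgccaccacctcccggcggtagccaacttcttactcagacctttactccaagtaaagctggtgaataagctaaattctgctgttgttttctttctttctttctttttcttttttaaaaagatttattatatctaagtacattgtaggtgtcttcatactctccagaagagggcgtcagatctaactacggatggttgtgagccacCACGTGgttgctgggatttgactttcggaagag
Mrps15: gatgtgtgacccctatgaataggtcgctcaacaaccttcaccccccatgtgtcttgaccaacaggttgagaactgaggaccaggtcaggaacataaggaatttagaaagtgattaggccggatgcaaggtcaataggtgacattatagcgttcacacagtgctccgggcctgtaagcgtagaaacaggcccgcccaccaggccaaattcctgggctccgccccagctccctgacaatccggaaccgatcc
Mrps24: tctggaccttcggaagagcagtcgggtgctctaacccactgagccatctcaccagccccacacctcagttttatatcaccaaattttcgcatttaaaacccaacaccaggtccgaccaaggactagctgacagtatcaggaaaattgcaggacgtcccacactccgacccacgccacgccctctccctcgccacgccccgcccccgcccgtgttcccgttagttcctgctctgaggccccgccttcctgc
Mrps22: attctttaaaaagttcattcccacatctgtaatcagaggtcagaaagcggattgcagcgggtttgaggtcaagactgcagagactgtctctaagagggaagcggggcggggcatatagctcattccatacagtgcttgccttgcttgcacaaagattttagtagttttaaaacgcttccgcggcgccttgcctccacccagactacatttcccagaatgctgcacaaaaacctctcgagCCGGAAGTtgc
Mrpl45: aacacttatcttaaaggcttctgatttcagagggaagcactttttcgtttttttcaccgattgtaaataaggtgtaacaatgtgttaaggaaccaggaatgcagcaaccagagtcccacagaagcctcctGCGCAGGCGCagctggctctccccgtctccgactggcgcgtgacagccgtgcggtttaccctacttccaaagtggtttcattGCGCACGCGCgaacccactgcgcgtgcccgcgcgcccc

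Members often lie head to head with another gene. A protein-coding gene on the other strand starts within 1000 bp of the start of 33 of the 77 tested members (42.9%), against 2086 of the 13662 protein-coding genes tested (15.3%). One such pair is made of members, Mrpl46 on the minus strand and Mrps11 on the plus strand of chromosome 7, whose RefSeq starts have 41 bases between them. That stretch, chr7:78783090-78783130, is given on the strand of Mrps11 and holds none of the motifs searched.
Mrps11: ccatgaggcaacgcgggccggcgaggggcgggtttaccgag

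Of the 6 motifs searched on both strands, 3 were held by a larger share of members than of all tested genes. The NRF1 core, named after a transcription factor of nuclear genes for mitochondria, was in the window of 13 of 69 members (18.8%) and of 10.5% of the 11463 tested genes with a window. The ETS core CCGGAAGT was in 12 members (17.4%) and 8.38% of the tested genes, and the YY1 core AAGATGGC in 12 members (17.4%) and 4.80% of the tested genes. The E-box CACGTG was in 7.25% and 11.2%, the cAMP response element TGACGTCA in 2.90% and 3.36%, and the estrogen-related receptor site TCAAGGTCA in 0 members and 0.340%. Members that rose in cold-exposed control mice held the NRF1 core in 18.2% of 33 windowed genes, and those that fell in 16.7% of 12. Those past the threshold in neither direction held it in 21.7% of 23. In that order the shares were 18.2%, 8.33% and 21.7% for the ETS core and 18.2%, 16.7% and 17.4% for the YY1 core. Among the members that fell, 2 held the NRF1 core, 1 the ETS core and 2 the YY1 core. These are descriptions of letters in a window, in which the motifs do not contain one another, and no test was made.

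Of the 78 members, 77 passed the filter on low counts and were tested among 17286 genes. The tested members had 50 to 2805 counts in each mouse. The remaining member, Mrpl53 of the large subunit, had 0 to 7 counts per mouse (median 3) and 0 counts in 3 mice. On the same strand, 88.0% of its exonic bases are shared with Gm42688, so that its reads could go to either gene or to none.

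Per length, the members spanned a 34.8-fold range of levels in control mice at 30 °C. The scale is CPM per kb of the principal transcript, and the median member had 20.5 at 30 °C and 25.1 at 5 °C. Mrpl42 (133 ± 10.4, SD, n = 7) and Mrpl30 (124 ± 6.86), both large subunit proteins, were highest at 30 °C and overlapped each other in range. They were followed by Mrpl34 (73.4 ± 7.17), Mrps21 (70.9 ± 6.26) and Mrpl33 (58.2 ± 4.51), whose ranges overlapped one another. The lowest were Mrpl57 (5.72 ± 0.471), Mrps34 (5.40 ± 1.49), Mrps25 (4.53 ± 0.515), Mrps26 (3.97 ± 0.634) and Mrpl19 (3.81 ± 0.365), neighbours in order whose ranges overlapped. The order was close at both temperatures (Spearman rho 0.901 over 77 members measured in the same libraries). It depends on the transcript chosen, since levels per exonic length of all transcripts ranked the members with a rho of 0.789 to these. On that scale Mrpl34 was at 73.4, Mrps21 at 46.8, Mrpl30 at 37.2, Mrpl42 at 24.0 and Mrpl33 at 3.80. Mrpl18 (42.1) and Mrpl2 (41.5) then lay above Mrpl30, Mrpl42 and Mrpl33. Exons of Nme3 on the same strand cover 37.0% of the exonic bases of Mrps34, and those of Mapk8ip3 on the other strand 63.4%. On the other strand, exons of Nr2c2 cover 69.8% of Mrps25 and those of Gcfc2 36.0% of Mrpl19. The counting is not stated to use strand.

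**Figure D1:**
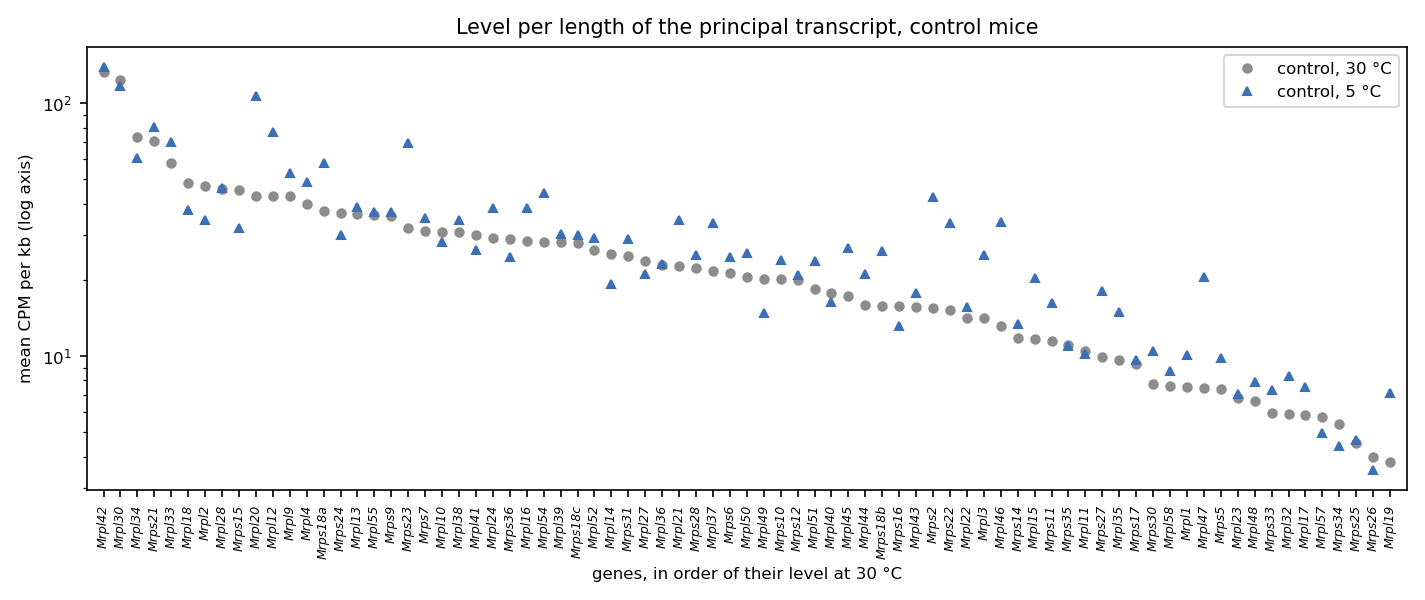
Mean CPM per kb of the principal transcript (log axis) for the 77 tested genes in control mice, in order of the level at 30 °C (grey circles, n = 7 mice) with the level at 5 °C (blue triangles, n = 5 mice). Levels fall from 133 for Mrpl42 to 3.81 for Mrpl19, and the members with the largest rises, such as Mrpl20, Mrps23, Mrps2 and Mrpl47, stand above the order at 5 °C.

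Cold raised more members than it lowered. In control mice 50 of the 77 tested members (64.9%) passed an FDR of 0.05, 38 higher and 12 lower at 5 °C, with log2 fold changes from -0.50 to 1.47. Over all tested genes 65.0% passed, 31.6% higher and 33.4% lower, so that the share of members past the threshold was near the background while 49.4% of members were higher and 15.6% lower. The median log2 fold change was 0.19 over the members and -0.014 over all tested genes. For 40 members (51.9%) the CPM of the 2 groups did not overlap, against 46.4% of all tested genes. The changes were mostly small. Of the 50 members, 31 changed by less than 0.5 on the log2 scale, and 6 rose by more than 1. The same shares were not computed over all genes past the threshold.

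With library size alone as the scaling, the median of all genes moved to -0.14, and 38 members passed, 25 higher (32.5%, all genes 24.1%) and 13 lower (16.9%, all genes 36.1%). Upper-quartile factors moved it to -0.12 and gave 33 higher (42.9%, all genes 27.5%) and 17 lower (22.1%, all genes 38.1%). The distance between the members' median and that of all genes was 0.21 with TMM factors and 0.20 and 0.21 with these scalings. Across all 9 settings that left out no mouse of the groups compared, TMM included, 25 members were higher and 9 lower past the threshold in control mice. Such counts over every setting were not made for all tested genes. The mice over 1000 CPM of muscle markers were left out in a choice made after seeing the data. Without them 33 members were higher (42.9%, all genes 28.4%) and 9 lower (11.7%, all genes 30.5%).

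The largest rises in control mice were spread over both subunits. Mrpl47 (ENSMUSG00000037531.8, mm10 chromosome 3 from 32725397 to 32737605), a large subunit protein with a bacterial counterpart, had 20.2 to 26.8 CPM (median 25.6) in control mice at 30 °C. At 5 °C the control mice had 71.7, 67.2, 67.6, 67.1 and 72.5 CPM. Mice labelled FAKO had 22.9 to 33.0 CPM (median 24.8) at 30 °C and 59.3 to 76.3 CPM (median 69.2) at 5 °C. In both genotypes every cold-exposed mouse lay above every mouse at 30 °C. The log2 fold change was 1.47 (SE 0.09, FDR = 7.20e-14 in edgeR's quasi-likelihood test) in control mice and 1.38 (SE 0.08, FDR = 4.28e-14 in edgeR's quasi-likelihood test) in mice labelled FAKO. Of its exonic bases, 13.9% are shared with Ndufb5 and 10.2% with Actl6a on the other strand.

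Mrps2 (ENSMUSG00000035772.11, mm10 chromosome 2 from 28468066 to 28471178), a small subunit protein with a bacterial counterpart whose upstream sequence is printed above, had 26.8 to 37.3 CPM (median 31.2) in control mice at 30 °C. It had 91.8, 81.4, 92.5, 87.1 and 90.5 CPM at 5 °C. In mice labelled FAKO it had 26.8 to 41.3 CPM (median 33.3) and, after cold, 86.5 to 98.5 CPM (median 90.3). Again the cold-exposed mice did not overlap the mice at 30 °C. The log2 fold change of Mrps2 was 1.46 (SE 0.09) in control mice and 1.41 (SE 0.09) in mice labelled FAKO.

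Mrpl46 (ENSMUSG00000030612.6, mm10 chromosome 7 from 78775236 to 78783531), found in mitochondrial large subunits only, had 12.5 to 17.9 CPM (median 14.8) in control mice at 30 °C and 40.6, 36.9, 38.0, 34.8 and 41.1 CPM at 5 °C. In mice labelled FAKO it went from 14.1 to 19.8 CPM (median 15.5) to 34.9 to 49.2 CPM (median 36.7). Its head-to-head partner Mrps11, a small subunit protein with a bacterial counterpart, had 10.0 to 14.5 CPM (median 12.1) in control mice at 30 °C and 18.8, 17.2, 16.2, 17.3 and 16.3 CPM at 5 °C. Both genes rose and neither overlapped between temperatures in control mice. The log2 fold change was 1.35 (SE 0.10) for Mrpl46 and 0.50 (SE 0.09) for Mrps11 in control mice, and 1.28 (SE 0.09) and 0.49 (SE 0.08) in mice labelled FAKO. Their annotated exons share 173 bases on opposite strands, 12.2% of the exonic bases of Mrpl46. The rise of Mrps11 in mice labelled FAKO did not pass with library size alone. Mrps11 is named after its values were seen.

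Mrpl20 (ENSMUSG00000029066.12, mm10 chromosome 4 from 155802878 to 155809975), a large subunit protein with a bacterial counterpart, had 26.9 to 39.5 CPM (median 34.5) in control mice at 30 °C and 84.5, 79.8, 79.1, 81.3 and 84.9 CPM at 5 °C. In mice labelled FAKO it had 27.5 to 37.0 CPM (median 30.8) and 72.7 to 120.3 CPM (median 80.1). It had the largest log2 fold change of the members in mice labelled FAKO, 1.46 (SE 0.10), against 1.31 (SE 0.11) in control mice. At the low end of its cold range Mrpl20 was still well above the 30 °C mice.

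Mrps22 (mm10 chromosome 9 from 98588730 to 98601660) and Mrps23 (mm10 chromosome 11 from 88204388 to 88211507) belong to the small subunit of mitochondria only. Mrps22 had 15.2 to 19.9 CPM (median 18.3) in control mice at 30 °C and 40.0, 38.4, 40.7, 40.6 and 41.1 CPM at 5 °C. Mrps23 had 37.7 to 50.9 CPM (median 42.8) and 97.3, 88.6, 95.1, 87.7 and 93.7 CPM. Both rose in either genotype without overlap between temperatures. The log2 fold change of Mrps22 was 1.14 (SE 0.08) in control mice and 1.12 (SE 0.08) in mice labelled FAKO, and that of Mrps23 was 1.11 (SE 0.08) and 1.23 (SE 0.08).

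The next rises were below 1 on the log2 scale in either genotype, again with no overlap of the mice at the 2 temperatures. In control mice Mrpl19 rose by 0.91 (SE 0.08), Mrps27 by 0.87 (SE 0.07), Mrpl3 by 0.83 (SE 0.06), Mrpl15 by 0.80 (SE 0.07) and Mrps18b by 0.72 (SE 0.08). In mice labelled FAKO the values in that order were 0.89 (SE 0.07), 0.81 (SE 0.07), 0.71 (SE 0.06), 0.83 (SE 0.07) and 0.93 (SE 0.07). Mrps18b has a pseudogene, Gm13552, that is 99.8% identical to it over 417 bases, and its counts are uncertain for that reason.

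**Figure D2:**
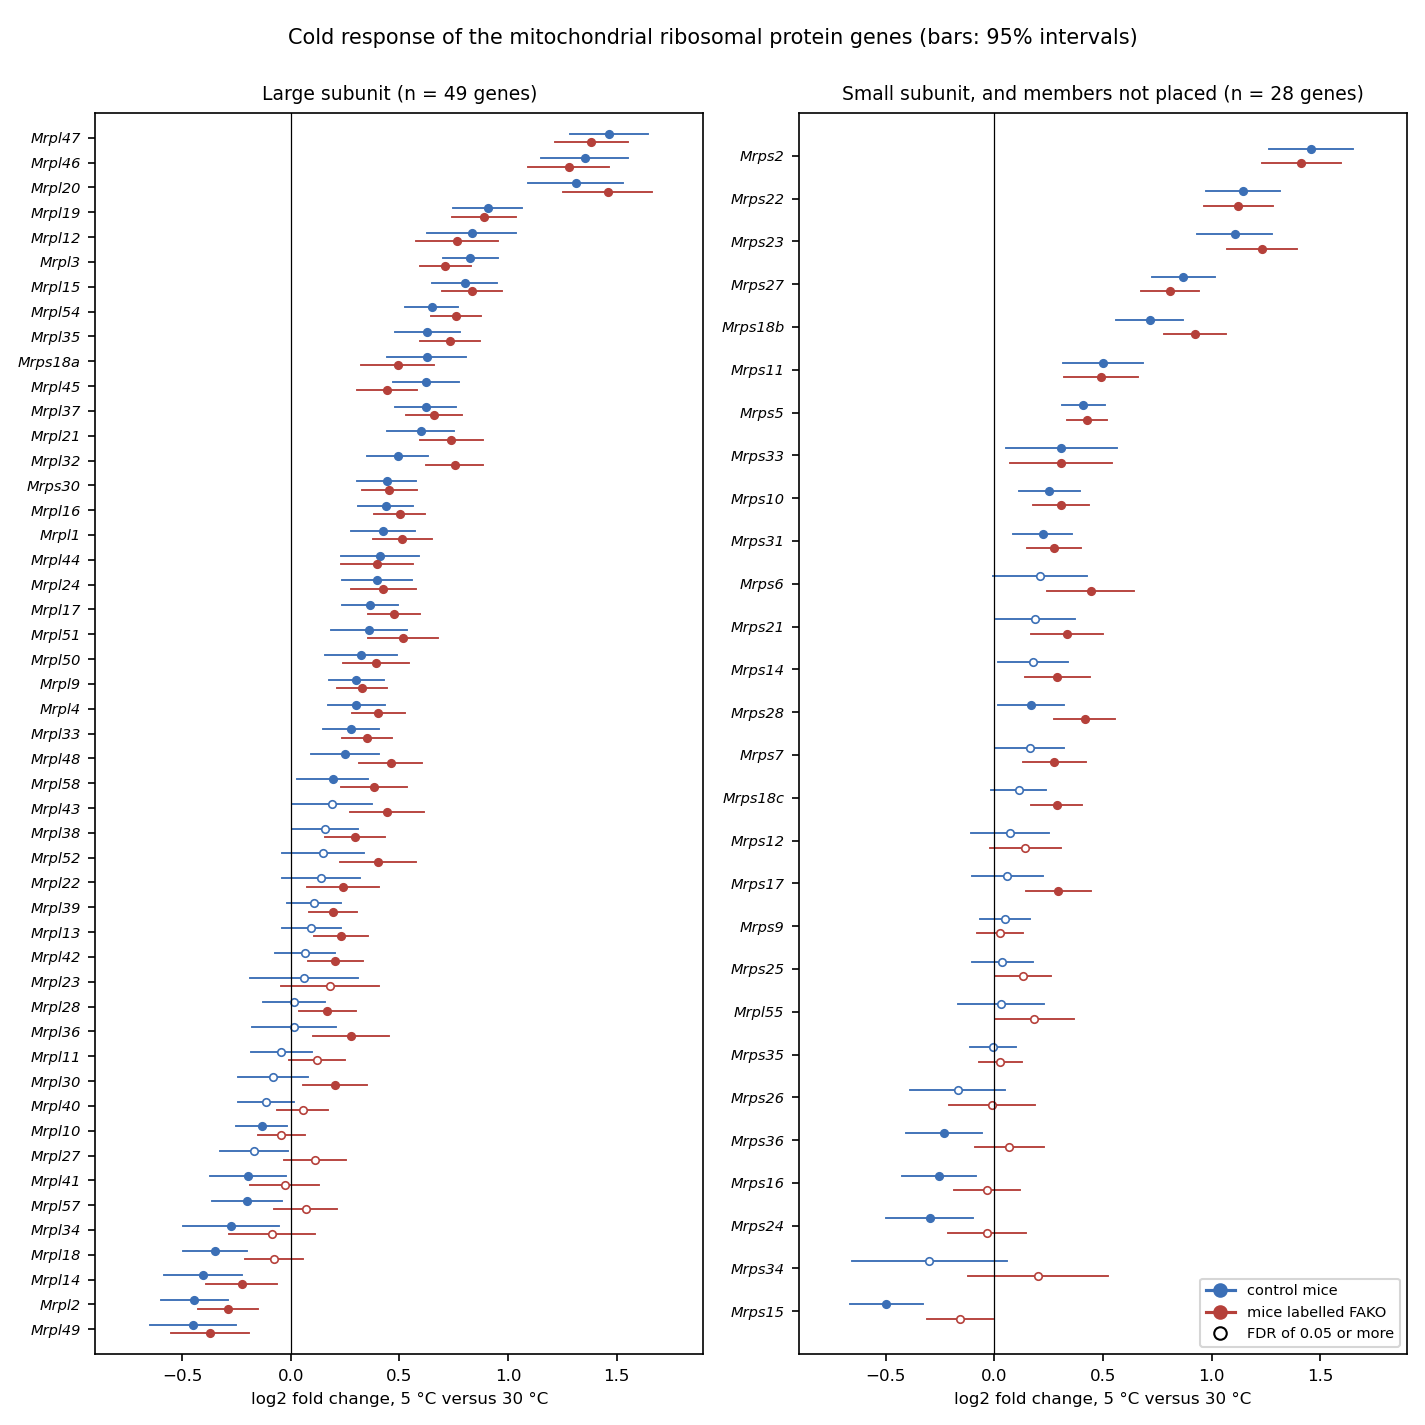
Log2 fold change from 30 °C to 5 °C (x axis) of each tested gene in control mice (blue) and in mice labelled FAKO (red), with 95% intervals, for the large subunit (left) and for the small subunit with Mrps36 and Mrpl55, which were not placed (right). Filled points passed an FDR of 0.05. Most points lie to the right of 0, from -0.50 for Mrps15 to 1.47 for Mrpl47 in control mice.

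The falls were smaller than the largest rises. Mrps15 (ENSMUSG00000028861.13, mm10 chromosome 4 from 126046925 to 126055532), a small subunit protein with a bacterial counterpart, had 36.4 to 49.1 CPM (median 41.1) in control mice at 30 °C and 29.7, 29.3, 30.6, 32.0 and 29.2 CPM at 5 °C. All 5 cold-exposed control mice lay below all 7 at 30 °C, a log2 fold change of -0.50 (SE 0.08, FDR = 5.93e-06 in edgeR's quasi-likelihood test). Mice labelled FAKO had 32.2 to 41.1 CPM (median 39.6) at 30 °C and 29.8 to 41.1 CPM (median 32.6) at 5 °C. There the ranges overlapped, and the log2 fold change of Mrps15 was -0.16 (SE 0.07, FDR = 0.0572 in edgeR's quasi-likelihood test). It passed without any 1 of the FAKO-labelled mice 8, 10 and 11 at 30 °C or 24 and 28 at 5 °C (-0.22 to -0.17), with at least 10 counts required in every mouse (-0.22) and in a fit to the groups compared (-0.20).

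Mrpl49 (mm10 chromosome 19 from 6053622 to 6057785), of the large subunit of mitochondria only, had 29.7 to 42.4 CPM (median 34.6) in control mice at 30 °C and 26.3, 28.8, 24.4, 26.0 and 25.1 CPM at 5 °C. Mrpl2 (mm10 chromosome 17 from 46646229 to 46650139), whose bacterial counterpart lies beside the site where peptide bonds form, had 42.8 to 52.6 CPM (median 50.6) and 36.8, 32.5, 39.1, 35.5 and 34.3 CPM. Mrpl14, which has a bacterial counterpart at the interface of the subunits, had 14.8 to 17.9 CPM (median 16.2) and 12.1, 13.8, 12.4, 12.2 and 11.5 CPM. None of these 3 overlapped between temperatures in control mice. The log2 fold changes were -0.45 (SE 0.10), -0.44 (SE 0.07) and -0.40 (SE 0.09) in control mice, and -0.37 (SE 0.09), -0.29 (SE 0.07) and -0.23 (SE 0.08) in mice labelled FAKO, in whom Mrpl49, Mrpl2 and Mrpl14 each overlapped between temperatures. These 3 are the only members that passed the threshold as lower in both genotypes. Without the mice over 1000 CPM of muscle markers, Mrpl14 no longer passed in mice labelled FAKO (-0.22). Mrpl18, also of the large subunit, had 53.9 to 67.2 CPM (median 58.0) in control mice at 30 °C and 47.1, 44.6, 44.9, 47.2 and 47.3 CPM at 5 °C, a log2 fold change of -0.35 (SE 0.07). In mice labelled FAKO Mrpl18 was at -0.08 (SE 0.07), and it passed as lower there without mouse 28 at 5 °C and with at least 10 counts required in every mouse (-0.14 in both).

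**Figure D3:**
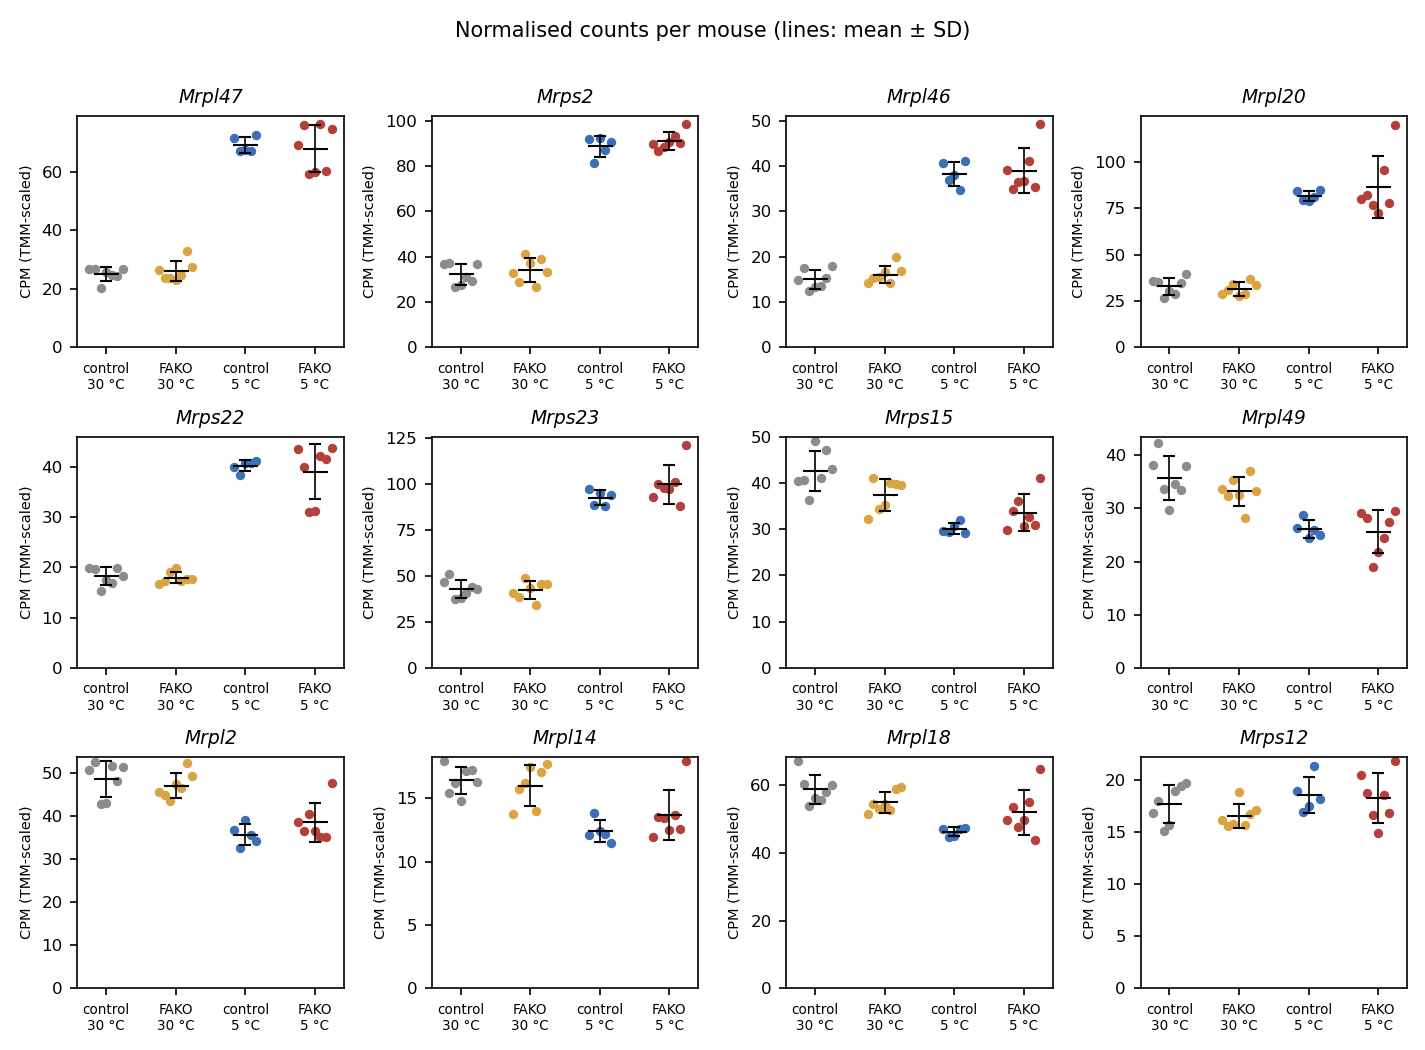
CPM per mouse (y axes from 0) in the 4 groups for the 6 largest rises in control mice, the 5 named falls, and Mrps12 as a member with no call in either genotype. Points are mice and black lines the mean ± SD. The rises separate 30 °C from 5 °C in both genotypes, and the falls do so in control mice.

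By structural group, the large subunit proteins with a bacterial counterpart had 16 of 29 members higher and 5 lower in cold-exposed control mice (median log2 fold change 0.30). Of the 20 tested large subunit proteins found in mitochondria only, 11 were higher and 3 lower (median 0.22). The small subunit proteins with a bacterial counterpart had 5 of 16 higher and 3 lower (median 0.17). Those of mitochondria only had 6 of 10 higher and 0 lower (median 0.27). Of these, 6 had an unadjusted p below 0.05 in edgeR's quasi-likelihood test, 0 of them lower. In this order of the 4 groups 55.2%, 55%, 31.25% and 60% were higher, against 31.6% of all tested genes. The small subunit proteins with a bacterial counterpart were thus near the background for rises. The shares lower were 17.2%, 15%, 18.75% and 0%, against 33.4% of all tested genes. In mice labelled FAKO, 21, 16, 11 and 6 members of the 4 groups were higher and 2, 1, 0 and 0 lower, with medians of 0.35, 0.40, 0.29 and 0.29. The shares higher there were 72.4%, 80%, 68.75% and 60%, against 33.7% of all tested genes. The shares lower were 6.9%, 5%, 0% and 0%, against 34.9%. Differences between the structural groups were not tested.

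Members known for a role beside that of a structural part went different ways. Mrpl12, a stalk protein of the large subunit that recruits translation factors and is also known to bind the mitochondrial RNA polymerase, rose from 52.4 to 61.0 CPM (median 57.6) to 109, 111, 100.3, 87.6 and 97.8 CPM in control mice. Its log2 fold change was 0.83 (SE 0.10), and 0.77 (SE 0.09) in mice labelled FAKO. The other stalk proteins had small values, with -0.13 (SE 0.06) and -0.04 (SE 0.05) for Mrpl10, which passed as lower in control mice but not without a filter on low counts or without the mice over 1000 CPM of muscle markers, and -0.04 (SE 0.07) and 0.12 (SE 0.06) for Mrpl11, which passed in neither genotype. Mrpl45, which holds the ribosome to the inner membrane, rose by 0.62 (SE 0.07) in control mice and by 0.44 (SE 0.07) in mice labelled FAKO. Mrpl44, a protein with a ribonuclease-like fold, rose by 0.41 (SE 0.09) and 0.40 (SE 0.08), and Mrpl58, related to release factors that free stalled peptides, by 0.19 (SE 0.08) and 0.38 (SE 0.07). Mrpl58 did not pass in control mice without the mice over 1000 CPM of muscle markers, with library size alone or upper-quartile factors, with either other filter on low counts or in a fit to the groups compared. Leaving out 1 control mouse ended the call of Mrpl10 (-0.14 to -0.11) for mice 1, 2, 5 and 6 at 30 °C and 16, 17, 19 and 21 at 5 °C. It ended that of Mrpl58 (0.15 to 0.19) for mice 1, 2, 3 and 6 at 30 °C and 16, 19 and 21 at 5 °C. In mice labelled FAKO the rises of Mrpl44, Mrpl45 and Mrpl58 did not pass with library size alone, nor did that of Mrpl44 in control mice.

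Mrps12, the decoding centre protein of the small subunit, had 15.1 to 19.6 CPM (median 18.0) in control mice at 30 °C and 18.9, 16.9, 17.4, 21.3 and 18.1 CPM at 5 °C. These ranges overlapped, and the log2 fold change of Mrps12 was 0.07 (95% interval -0.11 to 0.25) in control mice and 0.14 (95% interval -0.02 to 0.31) in mice labelled FAKO. With library size alone or upper-quartile factors the sign of Mrps12 was negative in both genotypes, and without FAKO-labelled mouse 25 at 5 °C it passed as higher in those mice (0.18).

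Mammals have 3 proteins related to the bacterial protein S18, which sit in different places. Mrps18a, which lies in the large subunit despite its name, rose by 0.63 (SE 0.09) in control mice and by 0.49 (SE 0.08) in mice labelled FAKO. Mrps18b and Mrps18c lie in the small subunit. Mrps18c, the closest to the bacterial place, had a log2 fold change of 0.11 (SE 0.06, 95% interval -0.02 to 0.24) in control mice, where it did not pass, and rose by 0.29 (SE 0.06) in mice labelled FAKO. The rise of Mrps18a in mice labelled FAKO did not pass with library size alone. Mrps18c passed in control mice without control mouse 1 at 30 °C (0.14), and its rise in mice labelled FAKO did not pass with upper-quartile factors (0.13). In the scaling by library size alone it was at -0.00531 and -0.029. Mrps36, now known as a subunit of the α-ketoglutarate dehydrogenase complex, fell by 0.23 (SE 0.09) in control mice. In mice labelled FAKO Mrps36 had a log2 fold change of 0.07 (SE 0.08). It was negative there with upper-quartile factors (-0.086), and with library size alone it passed as lower (-0.25). The fall in control mice did not pass without control mouse 2 at 30 °C (-0.17). It has 4 pseudogenes with at least 95% identity, and the counts of Mrps36 are uncertain for that reason.

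In mice labelled FAKO 57 members (74.0%) passed the threshold from 30 °C to 5 °C, 54 higher and 3 lower. Of all tested genes 68.6% passed, 33.7% higher and 34.9% lower, while 70.1% of the members were higher and 3.9% lower. The median log2 fold change was 0.33 over the members and -0.025 over all tested genes. The 2 temperatures did not overlap for 34 members (44.2%), against 40.4% of all tested genes. This count depends on the scaling more than that of control mice. Library size alone moved the median of all genes to -0.34. At that scaling 17 members (22.1%) were higher, near the 18.6% of all genes, and 15 (19.5%) lower, against 48.5% of all genes. Upper-quartile factors moved the median of all genes to -0.18, with 39 members higher (50.6%, all genes 27.2%) and 11 lower (14.3%, all genes 42.6%). The members' median lay above that of all genes by 0.35 with TMM factors and upper-quartile factors and by 0.36 with library size alone. Without mouse 28 at 5 °C 5 members were lower, and likewise 5 with at least 10 counts required in every mouse. Across the 9 settings that left out no mouse of the groups compared, 17 members were higher and 3 lower in every setting. This count was not made for all tested genes.

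Both genotypes gave the same direction wherever both passed. Of the 77 members 41 passed in both, 38 higher and 3 lower, and 0 in opposite directions. A further 9 passed in control mice only, all lower, and 16 in mice labelled FAKO only, all higher, and 11 in neither. Of those 9, Mrps15, Mrpl18 and Mrpl10 also passed as lower in mice labelled FAKO with library size alone (-0.48, -0.39 and -0.36) and with upper-quartile factors (-0.31, -0.23 and -0.20). Mrps36 passed as lower there with library size alone (-0.25). Values of the rest of the 9 in these settings are not given. In all, 15 members were lower in mice labelled FAKO with library size alone and 11 with upper-quartile factors. Across the members the cold responses of the 2 genotypes, which share no mice, correlated with a Pearson r of 0.970 (Spearman rho 0.961). The members were measured in the same libraries and are not independent replicates. Over all tested genes 65.0% passed in control mice and 68.6% in mice labelled FAKO, and 1.16% for the difference of the responses. The agreement of the genotypes was not computed over all tested genes, so it is not shown to be particular to the members.

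Averaged over the 77 tested members as log2 CPM, control mice had 4.69 to 4.94 (median 4.89) at 30 °C and 5.18, 5.09, 5.12, 5.09 and 5.13 at 5 °C. Mice labelled FAKO had 4.73 to 4.92 (median 4.78) and 5.05 to 5.36 (median 5.15). The mice at 30 °C and those at 5 °C did not overlap in either genotype, while the 2 genotypes overlapped at each temperature. The difference of the means was 0.27 in control mice and 0.38 in mice labelled FAKO, against an SD of 0.08 between mice of a group.

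**Figure D4:**
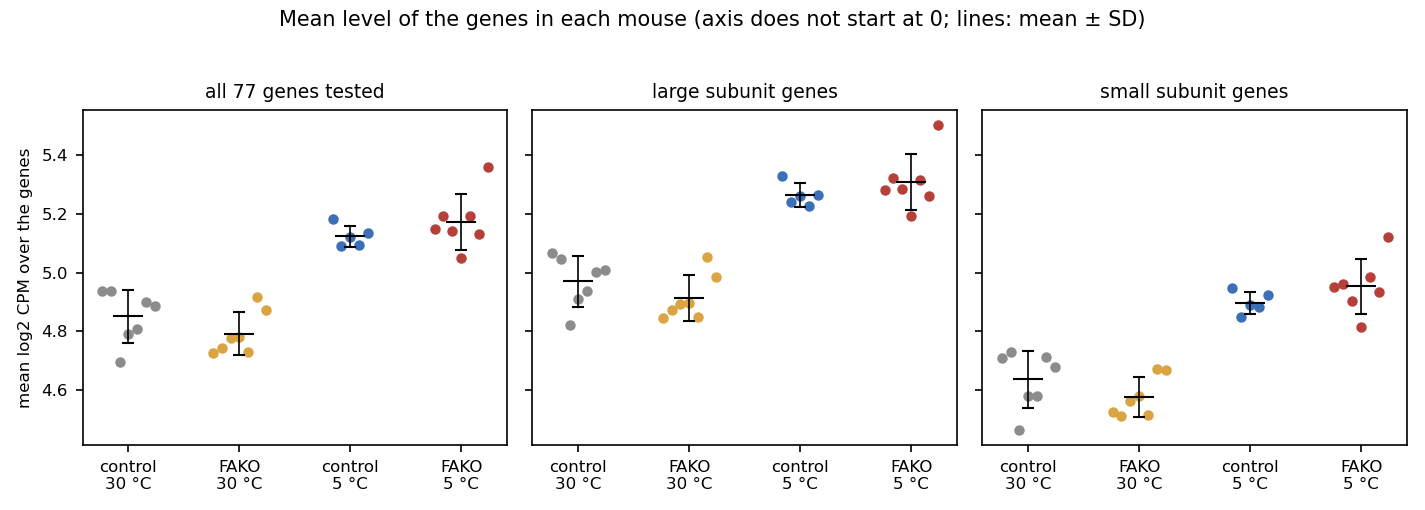
Mean log2 CPM per mouse over all 77 tested genes (left), the genes of the large subunit (middle) and those of the small subunit (right), on an axis that does not start at 0. Points are mice and black lines the mean ± SD of 7, 7, 5 and 7 mice. All mice at 5 °C lie above those at 30 °C in the left panel, from 5.05 upward against 4.94 at most.

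Markers of other cells moved with temperature as well. All 3 tested neutrophil markers of 5 were higher in the cold in both genotypes, at a sum of 0.349 to 3.62 CPM at 30 °C and 3.09 to 44.2 CPM at 5 °C, while Ly6g, the defining marker, had 0 to 3 counts. Of the 5 endothelial markers 3 rose in each genotype and 2 fell in control mice and 1 in mice labelled FAKO, and their sum went from 431 to 639 CPM at 30 °C to 600 to 831 CPM at 5 °C. Of the 6 macrophage markers 1 rose and 3 fell in control mice and 3 rose and 2 fell in mice labelled FAKO, at sums of 172 to 258 CPM at 30 °C and 177 to 283 CPM at 5 °C. Of the 6 lymphocyte markers, all negative in control mice, 3 fell there and 1 in mice labelled FAKO, at sums of 2.89 to 7.75 CPM at 30 °C and 1.12 to 18.0 CPM at 5 °C. Of the 3 white adipocyte markers 1 fell in control mice, and 2 fell and 1 rose in mice labelled FAKO. Lep, the leptin gene, had a log2 fold change of -5.61 (SE 0.49) in the former and -4.36 (SE 0.39) in the latter. Nuclear-retained RNAs such as Malat1 and Neat1 summed to 8951 to 10573 CPM at 30 °C and 14840 to 16273 CPM at 5 °C in control mice. All 5 red blood cell markers rose in mice labelled FAKO, and 0 passed in control mice (edgeR, 0 at an unadjusted p below 0.05). All 8 muscle markers had a positive log2 fold change in both genotypes, and 0 passed (edgeR, 0 at an unadjusted p below 0.05). The part of these in the members' values was not tested, beyond the counts without the mice over 1000 CPM of muscle markers.

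At neither temperature did any member pass the threshold between the genotypes. At 30 °C 0 of 77 members passed (0.0810% of all tested genes did, 0.0579% higher and 0.0231% lower in mice labelled FAKO), and 6 had an unadjusted p below 0.05 in edgeR's quasi-likelihood test, all lower in mice labelled FAKO, or 7.8% against 7.65% of all genes. DESeq2's Wald test gave 0 as well. Of the members 67 had a negative and 10 a positive log2 fold change, with a median of -0.064 (all genes -0.020). With library size alone the median of the members was 0.080 and that of all genes 0.13, and with upper-quartile factors they were -0.035 and 0.010. All 77 95% intervals lay within 0.5 of 0 on the log2 scale. The smallest p belonged to Mrpl32, a large subunit protein that is processed by the mitochondrial AAA protease, with 13.6 to 17.8 CPM (median 15.6) in mice labelled FAKO and 15.8 to 20.6 CPM (median 17.8) in control mice. The ranges overlapped, and the log2 fold change of Mrpl32 was -0.19 (95% interval -0.32 to -0.06, FDR = 0.410 in edgeR's quasi-likelihood test). Next came Mrps15 with -0.18 (SE 0.07) and Mrpl54 with -0.13 (SE 0.06), the latter 0.013 with library size alone.

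At 5 °C 0 members passed (0.139% of all tested genes did, 0.0463% higher and 0.0926% lower), and 7 had an unadjusted p below 0.05 in edgeR's quasi-likelihood test, all higher in mice labelled FAKO, or 9.1% against 13.4% of all genes. DESeq2's Wald test again gave 0. The median log2 fold change was 0.044 (all genes 0.021), with 58 members positive. It was 0.0021 (all genes -0.028) with library size alone, 0.024 (all genes -0.00013) with upper-quartile factors and 0.15 (all genes 0.032) without the mice over 1000 CPM of muscle markers. Mrpl36, a large subunit protein with a bacterial counterpart, had the smallest p, with 22.0 to 31.9 CPM (median 25.6) in mice labelled FAKO and 21.0, 19.0, 23.7, 19.96 and 22.8 CPM in control mice. The ranges overlapped, and the log2 fold change of Mrpl36 was 0.25 (95% interval 0.06 to 0.44, FDR = 0.239 in edgeR's quasi-likelihood test). It was 0.17 (SE 0.07) for Mrpl18 and 0.18 (SE 0.08) for Mrpl57. Of the 77 intervals, 76 lay within 0.5 of 0.

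A direct test compared the cold response of mice labelled FAKO with that of control mice, as their difference. Again 0 members passed (1.16% of all tested genes did, 0.289% with a positive and 0.868% with a negative difference), in DESeq2 as in edgeR, and 13 had an unadjusted p below 0.05 in edgeR's quasi-likelihood test, all positive, or 16.9% against 16.2% of all genes. The median difference was 0.11 over the members and 0.044 over all tested genes, with 63 of 77 positive. These medians were, with library size alone, -0.066 and -0.15, with upper-quartile factors 0.063 and -0.0072, and without the mice over 1000 CPM of muscle markers 0.19 and 0.034. Mrps15, whose cold values are given above, had the smallest p, a difference of 0.34 (95% interval 0.12 to 0.56, FDR = 0.119 in edgeR's quasi-likelihood test). It was 0.26 (SE 0.09) for Mrpl32 and 0.27 (SE 0.10) for Mrpl18. The members that passed for cold in a single genotype are thus not shown to respond differently. Of these 77 intervals 68 lay within 0.5 of 0. Shares of all tested genes by sign alone were not computed, here or between the genotypes at either temperature.

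**Figure D5:**
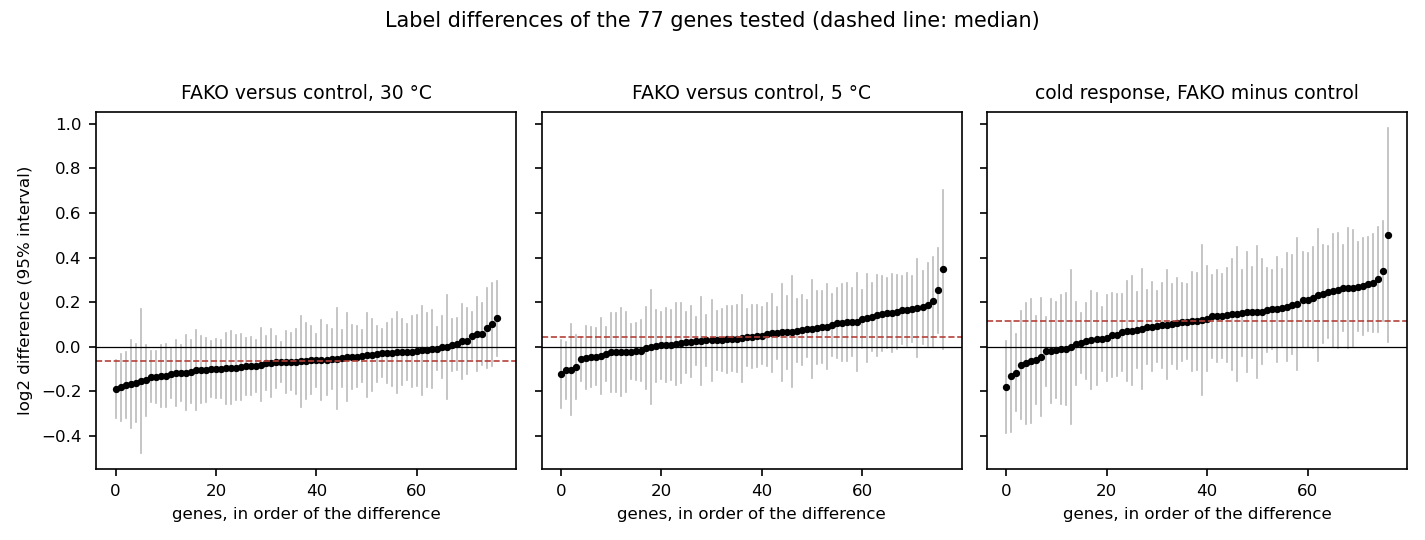
Log2 difference of each of the 77 tested genes, in order of size, between FAKO-labelled and control mice at 30 °C (left), at 5 °C (middle), and for the cold response of mice labelled FAKO minus that of control mice (right). Grey bars are 95% intervals and the dashed line is the median, at -0.064, 0.044 and 0.11. No gene passed an FDR of 0.05 in any panel.

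Other measures moved with the label in these libraries. Nuclear-retained RNAs summed to 10423 to 11779 CPM in mice labelled FAKO and 8951 to 10573 CPM in control mice at 30 °C, with all 4 positive and 0 past the threshold (edgeR, 3 at an unadjusted p below 0.05). At 5 °C the order was turned, with 10340 to 13577 CPM in mice labelled FAKO and 14840 to 16273 CPM in control mice, all 4 negative and 1 past the threshold. The 5 red blood cell markers summed to 517 to 1497 CPM in mice labelled FAKO and 417 to 684 CPM in control mice at 5 °C, and 0 passed (edgeR, 5 at an unadjusted p below 0.05). Their part in the members' values was not tested.

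The rest of the machinery that makes proteins in mitochondria was read from lists of genes chosen with earlier results of these data known. The background over all genes is 31.6% higher and 33.4% lower in control mice and 33.7% and 34.9% in mice labelled FAKO. Of 14 mitochondrial translation factors tested, 8 were higher and 3 lower in cold-exposed control mice and 10 and 3 in mice labelled FAKO. Of 25 factors for ribosome assembly and rRNA modification, 12 were higher and 7 lower, and 14 and 5. Of 17 mitochondrial aminoacyl-tRNA synthetases, the enzymes that load tRNAs, 5 were higher (29.4%) and 6 lower (35.3%), near the background, and 9 (52.9%) and 6 (35.3%) in mice labelled FAKO. All 5 subunits without an Mrp name were higher in mice labelled FAKO, and 3 of 5 in control mice. For the transcription of mitochondrial DNA 4 of 7 were higher and 1 lower in either genotype, and 6 of 9 regulators of mitochondrial biogenesis were higher and 0 lower.

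The largest changes in these lists exceeded those of the ribosomal proteins. Cars2, the mitochondrial cysteinyl-tRNA synthetase, had 11.8 to 18.0 CPM (median 13.4) in control mice at 30 °C and 420.2, 468, 435, 512 and 374 CPM at 5 °C, a log2 fold change of 4.93 (SE 0.18). Ppargc1a, a coactivator of genes for mitochondria, had 24.1 to 45.5 CPM (median 31.9) and 783, 567, 552, 538 and 357 CPM, a log2 fold change of 4.07 (SE 0.21). Neither overlapped between temperatures, and the values in mice labelled FAKO were 4.66 (SE 0.17) for Cars2 and 3.95 (SE 0.20) for Ppargc1a. Ddx28, a helicase of large subunit assembly, rose by 1.91 (SE 0.14) in control mice and 2.24 (SE 0.13) in mice labelled FAKO. Rpusd3, a pseudouridine synthase, fell by 1.83 (SE 0.15) and 1.75 (SE 0.14), and Mettl15, which methylates the rRNA of the small subunit, by 1.19 (SE 0.14) and 1.19 (SE 0.13). Mterf1b, related to a terminator of mitochondrial transcription, fell by 1.32 (SE 0.31) in control mice, from 0.877 CPM on average at 30 °C. It fell by 1.00 (SE 0.29) in mice labelled FAKO, which had 0.354 to 0.853 CPM at 30 °C.

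The rRNAs themselves, mt-Rnr1 of the small subunit and mt-Rnr2 of the large subunit, had log2 fold changes of -0.38 (95% interval -1.27 to 0.51) and -0.08 (95% interval -0.66 to 0.50) in cold-exposed control mice. In mice labelled FAKO they were at 0.18 (95% interval -0.62 to 0.99) and 0.35 (95% interval -0.18 to 0.89). The libraries were made after rRNA depletion, and mt-Rnr1 ranged from 6893 to 57481 CPM over the mice, so these values do not measure the number of ribosomes.

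Set beside 2 other gene groups, the members had a median cold response between theirs in both genotypes (0.19 and 0.33). Of the members 49.4% were higher and 15.6% lower in control mice, and 70.1% and 3.9% in mice labelled FAKO. Their share higher lay between those of the other groups in control mice but below both in mice labelled FAKO. Of all tested genes 31.6% were higher and 33.4% lower in control mice, and 33.7% and 34.9% in mice labelled FAKO. Of 79 cytosolic ribosomal proteins, which form the ribosome outside mitochondria, 75 (94.9%) were higher and 0 lower in control mice (median 0.41). In mice labelled FAKO 79 (100%) of them were higher and 0 lower (median 0.63). Of 84 tested nuclear subunits of the respiratory chain, 20 (23.8%) were higher and 8 (9.5%) lower in control mice (median 0.10). Both shares were below those of all genes. In mice labelled FAKO 67 subunits (79.8%) were higher and 4 (4.8%) lower (median 0.30). For the difference of the cold responses 9 cytosolic ribosomal proteins (11.4%, all positive) and 0 respiratory chain subunits passed, with medians of 0.23 and 0.21. Of all tested genes 0.289% passed with a positive difference. The differences between these groups of genes were not tested.

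Across the 77 members the log2 fold change in control mice had a Spearman rho of 0.26 with the length of the principal transcript and of -0.24 with the level per kb at 30 °C. Over the 13662 protein-coding genes tested, the rho with length was 0.02. These describe genes measured in the same libraries, and the level is itself one of the terms of the fold change. Of the members, 21 have a pseudogene with at least 95% identity over at least 100 bases, 28 share exonic bases with a gene on the other strand and 8 with one on the same strand, and the counts of these members are uncertain to that extent.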

How the data were processed

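RNA from BAT of 26 mice was sequenced as 100-bp single-end reads after rRNA depletion with a stranded kit. Reads were aligned by the authors with STAR 2.5.2b to mm10, and the authors counted them per gene with featureCounts 1.5.2 on GENCODE M13 and deposited counts without normalization, and the strand setting of the counting is not given in the sources used here. All 26 columns were used, grouped by the labels. Counts were tested in R 4.3.3 with edgeR 4.0.16 (legacy quasi-likelihood mode, TMM factors, filterByExpr by group, 1 term per group over all mice) after the authors' methods, and p-values were adjusted by Benjamini-Hochberg over the 17286 genes tested, with a threshold of 0.05, called FDR in the text. Log2 CPM had a prior count of 2. Symbols, lengths and overlaps came from GENCODE M21, where 50462 of the 50686 listed genes matched, and promoters from RefSeq. The steps were tested on simulated data. All 73 pairs of mice of a group differed by more than sampling noise (lowest chi-square per gene 4.83). P-values weigh a difference against the spread between mice within groups, which the main fit estimates over all 4 groups together.

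Members and lists were chosen with earlier results of these data known. Named are up to 10 rises and 10 falls per comparison among members past the threshold with groups that do not overlap, the 3 smallest p-values where none passed, the 5 highest and 5 lowest levels and members fixed by role. From the other lists the 3 largest rises and falls are named. The alternatives were DESeq2 1.42.0, other scalings and filters, the revised quasi-likelihood method, fits to the groups compared, and leaving out mice.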

Additional observations from a re-analysis of the deposited data

Results flagged for a closer look

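Dixon's 95% criterion was applied in the 4 groups to the members named by the rules above and to the mean over all tested members. Chance flags about 1 in 20 of these 156 sets of mice, or 7.8 sets. In 13 sets, all of named members, a mouse lay farther from the others than the criterion allows. The same mouse labelled FAKO, number 28 at 5 °C, was the highest in 7 of them. It had 121 CPM of Mrps23 (next highest 100.8), 47.6 of Mrpl2 (next 40.3), 17.9 of Mrpl14 (next 13.7), 19.8 of Mrpl57 (next 16.2), 114 of Mrpl42 (next 97.7), 21.5 of Mrps26 (next 16.9) and 40.2 of Mrpl11 (next 33.0). This mouse also had the highest mean over the members (5.36 in log2 CPM) and the lowest share of mitochondrial transcripts (19.2%) of its group. Control mouse 3 at 30 °C was the lowest for Mrpl47 at 20.2 CPM (next 24.4) and for Mrps27 at 15.2 CPM (next 18.2). Single values stood apart in control mice for Mrps36 at 25.7 CPM at 30 °C (next 21.1), and at 5 °C for Mrpl57 at 15.6 (next 14.1), Mrpl34 at 40.2 (next 36.7) and Mrps25 at 30.4 CPM (next 28.0).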

How the results depend on the processing

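With library size alone the members' median log2 fold change was 0.064 for cold in control mice, 0.017 for cold in mice labelled FAKO (32 members past the threshold), 0.080 between FAKO-labelled and control mice at 30 °C and -0.066 for the difference of the cold responses, and the mean log2 CPM over the members differed by 0.16, 0.061, 0.091 and -0.096. In that setting Mrps12 was at -0.058 and Mrps18c at -0.00531 in control mice, Mrpl11 at -0.20, Mrps12 at -0.16, Mrps36 at -0.25 and Mrps18c at -0.029 in mice labelled FAKO, all for cold, and Mrpl54 at 0.013 at 30 °C. Upper-quartile factors gave medians of 0.086 and 0.17 for cold, with Mrps12 at -0.033 in control mice and Mrpl11 at -0.036, Mrps12 at -0.011 and Mrps36 at -0.086 in mice labelled FAKO. Median shifts of all genes under these scalings stand beside the counts. Without the mice over 1000 CPM of muscle markers, added after seeing the data, the median for mice labelled FAKO at 5 °C was 0.15. With each mouse left out in turn, 45 to 51 members passed for cold in control mice (medians 0.16 to 0.21) and 54 to 60 in mice labelled FAKO (0.29 to 0.35), and 0 for the label or the difference of the responses (medians -0.09 to -0.04 at 30 °C, 0.02 to 0.06 at 5 °C and 0.08 to 0.15). DESeq2, its size factors, both filters, the revised method and fits to the groups compared left the counts of members within 1.5 times, except the 3 lower in mice labelled FAKO, which were 5 with at least 10 counts required in every mouse. The cause of these shifts was not tested. No paired analysis was possible because the groups share no mouse numbers.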
